A study of Mus musculus with 39 samples.

Results

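The RNAs of the mitochondrial ribosomal proteins were followed across sucrose gradients of mouse liver by ATLAS-Seq, which sequences the RNA of successive fractions of a homogenate made without detergent. The members were taken by symbol, as every gene with a row in both deposited tables whose name is Mrpl or Mrps followed by a number and at most 1 letter. This gave 78 of the 13230 genes in both tables, 49 named Mrpl and 29 named Mrps. All 78 passed the filter of a mean TPM of at least 1, and 76 of them had a mean TPM of at least 10. RefSeq for GRCm38.p6 also lists 78 genes of this form, and each of them is a member.

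The mitochondrial ribosome translates the few messages of the mitochondrial genome, which encode core subunits of the respiratory chain and of the ATP synthase. Its ribosomal RNAs come from that genome, but all of its proteins are encoded in the nucleus, translated outside the mitochondrial matrix and imported. Some of these proteins have a counterpart in the bacterial ribosome, and others are found only in mitochondria. The symbols do not always give the place of the protein: Mrps18a and Mrps30 lie in the large subunit, Mrpl58 is a peptidyl-tRNA hydrolase that was built into the large subunit, and Mrps36 is now counted as a subunit of the 2-oxoglutarate dehydrogenase complex.

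All samples were of the same kind, wild-type FVB female mouse liver, and differed in the fraction and the gradient. The homogenate was made with ceramic beads, cleared of nuclei and layered on a gradient of 10% to 50% sucrose, of which 24 fractions were collected. Gradient 1 has 17 libraries (fractions 4 to 19 and 21) and gradient 2 has 22 libraries (fractions 3 to 24), with 1 library per fraction, and the 2 gradients, independent biological replicates, give the 17 fractions they share their replicates. The age and number of the animals behind a gradient are not given in the sources used here. Values are TPM, a measure corrected for transcript length that gives the share of an RNA among the transcripts of its fraction. An equal mass of RNA went into each library, so TPM does not give the amount of an RNA in a fraction. Peaks, centers and places in the gradient below are therefore those of this share.

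TPM keeps no read counts, so the depth of each library is unknown and errors rest on how far the 2 gradients differ. Totals ran from 998099 to 999202 TPM over the 39 libraries. Each library's own 50 largest genes took 27.0% to 52.4% of its TPM. Hepatocyte markers summed to between 8402 and 60297 TPM per library, and the markers of Kupffer cells, the macrophages of the liver, to between 36.7 and 158 TPM. Epcam, a marker of cholangiocytes, and Col1a1, a collagen gene of stellate cells, had no row in either table. Each gradient was loaded with a single homogenate, so that marker levels along it do not count cells. Between the gradients, fewer cells of a type and less RNA per cell cannot be told apart.

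As a group, these RNAs held a small share of the light fractions and their largest share in the middle of the gradient. Their summed TPM was lowest in fraction 4 of gradient 1 (2472 TPM) and in fraction 5 of gradient 2 (2968 TPM), and highest in fraction 11 of both gradients (11430 and 10957 TPM). When every member was set relative to its own average across the 17 fractions that both gradients have, the mean profile of the members peaked at fraction 11 with 1.52 times the mean in each gradient. The corresponding mean over all 11754 genes tested peaked at fraction 5, with 1.44 and 1.35 times the mean.

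**Figure D1:**
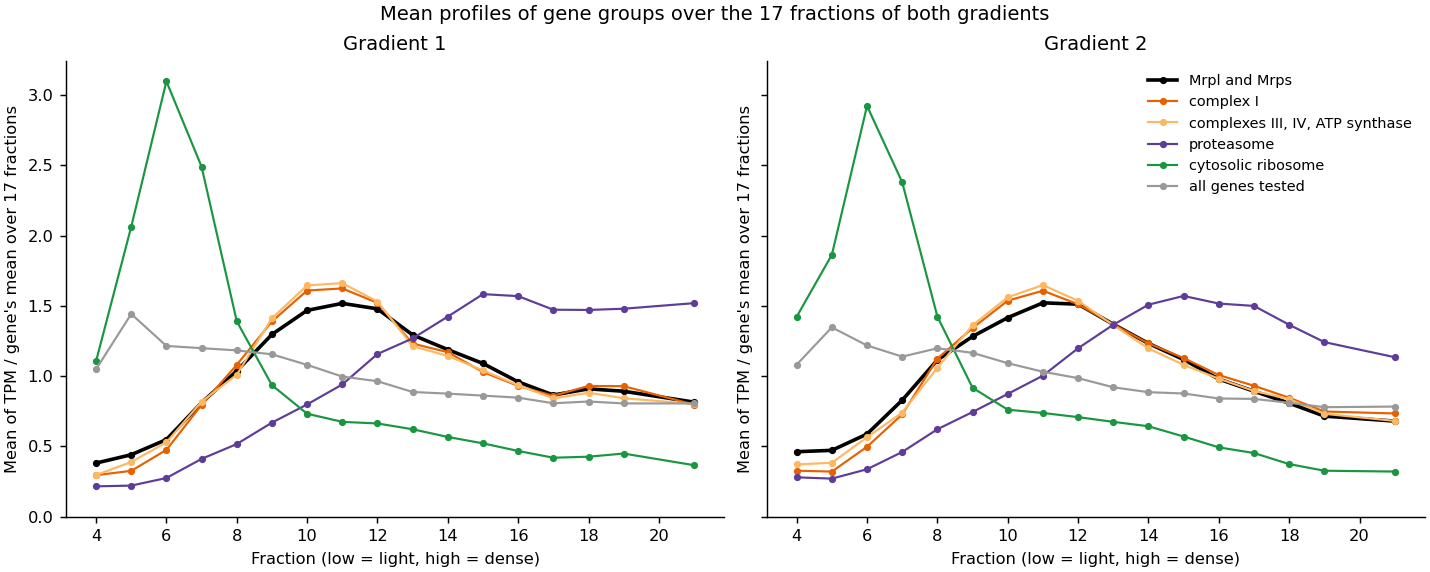
Mean profile of the Mrpl and Mrps RNAs (black) and of other gene groups over the 17 fractions present in both gradients, with the fraction on the horizontal axis and the mean of TPM over each gene's own mean on the vertical axis. The members peak at fraction 11 in both gradients, beside the RNAs of complex I and of complexes III, IV and ATP synthase. The RNAs of cytosolic ribosomal proteins peak at fraction 6 and the proteasome RNAs at fraction 15.

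Within this shared peak the members were spread over much of the gradient, and they kept their places in both gradients. The center of an RNA, its mean fraction number weighted by TPM over the 17 shared fractions, ran from 9.35 for Mrps24 to 15.5 for Mrps31 in gradient 1, and from 9.25 for Mrpl42 to 15.5 for Mrps31 in gradient 2. The median center was 12.5 in gradient 1 and 12.3 in gradient 2, against 11.3 in each gradient for all genes tested. The centers of the 78 members in the 2 gradients were related with Pearson's R = 0.978 and Spearman's rho = 0.981, which describes genes measured in the same libraries and carries no test. A member's center differed between gradients by a median of 0.283 fractions and by at most 0.971, for Mrpl47, and it was lighter in gradient 2 for 60 of 78. From gradient 1 to gradient 2 the median change was -0.245 fractions for the members and -0.094 for all genes tested.

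**Figure D2:**
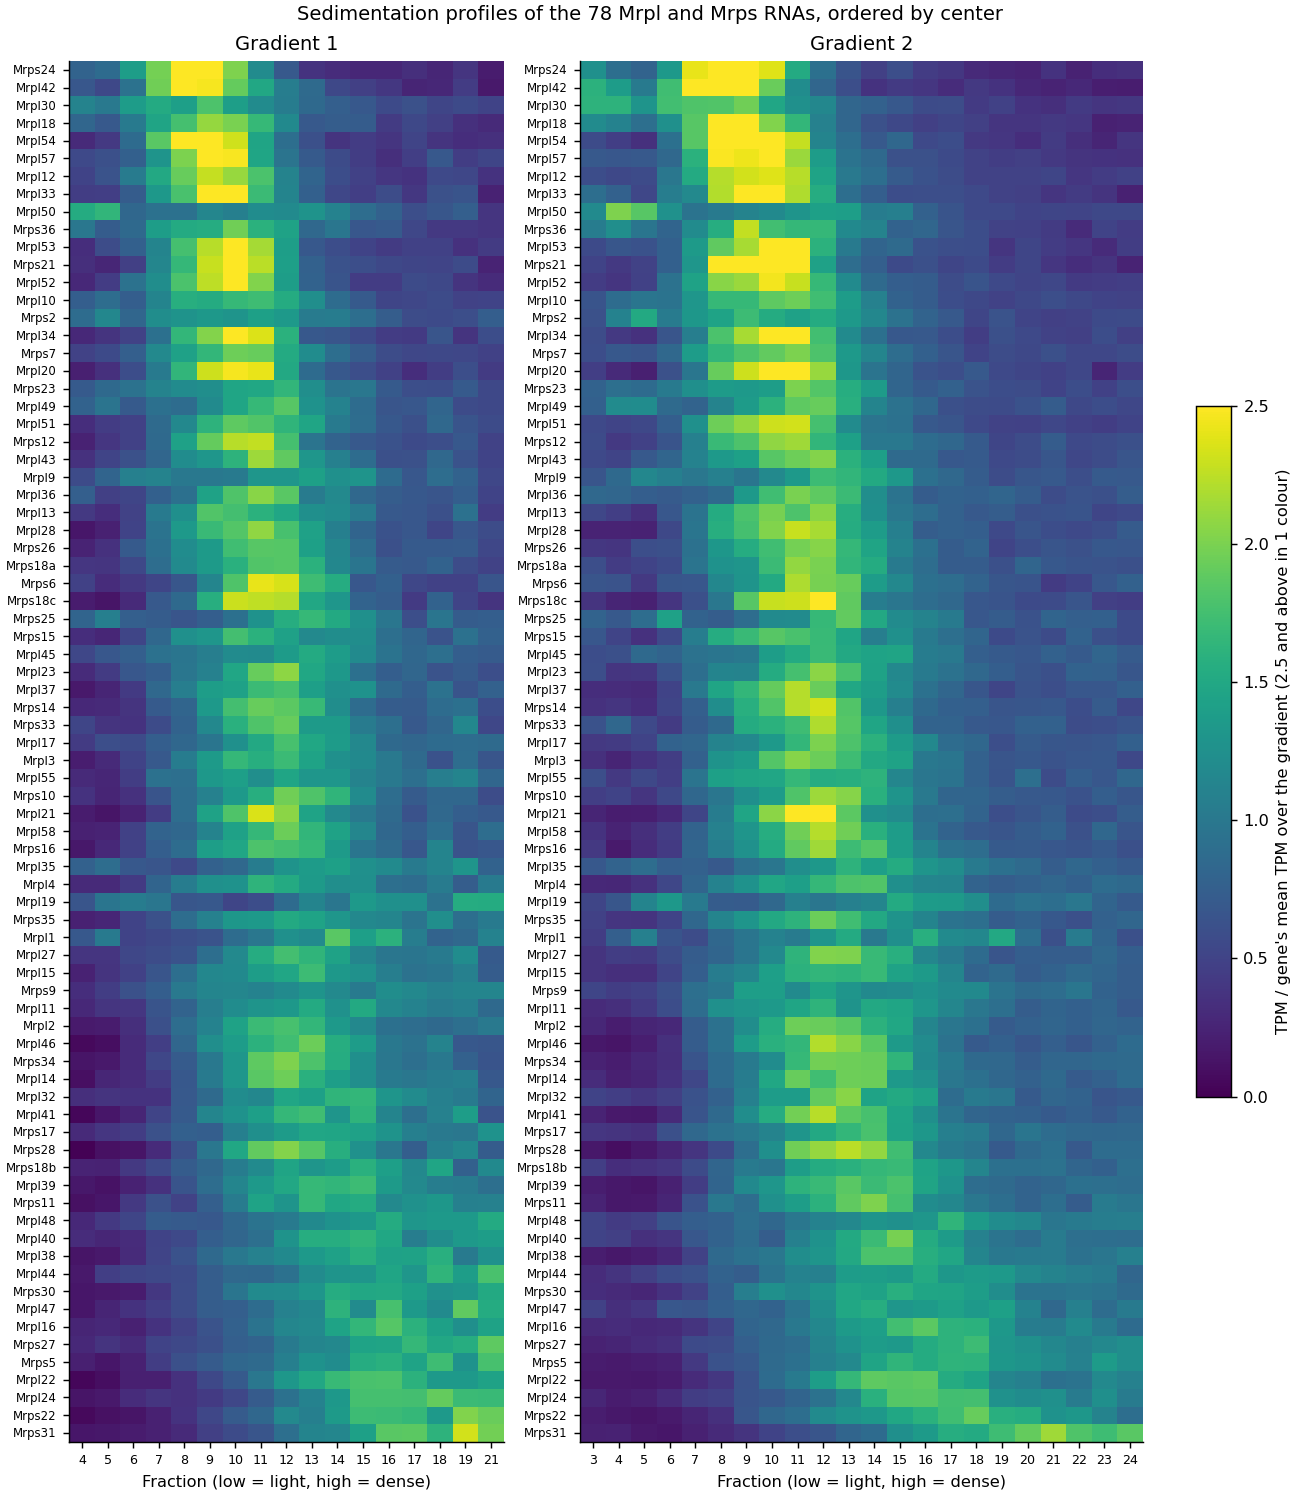
Each row is 1 of the 78 RNAs, ordered from the lightest center (top) to the densest (bottom), each column is a fraction, and the colour is TPM over the gene's mean in that gradient. The maximum moves from fractions 8 and 9 for Mrps24 and Mrpl42 at the top to fractions 19 and 21 for Mrps31 at the bottom, in both gradients. Mrpl50 stands apart with its maximum in fractions 4 and 5.

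The place of the maximum gives the same picture. It fell in fractions 10 to 13 for 50 members in each gradient, which is 64.1% of the members, against 14.8% and 14.9% of all genes tested. In gradient 1 it fell in fractions 8 or 9 for 8 members, in fractions 14 to 16 for 11, and in fractions 17 or above for 8 (Mrpl19, Mrpl24, Mrpl44, Mrpl47, Mrps5, Mrps22, Mrps27 and Mrps31). These are 10.3%, 14.1% and 10.3% of the members, against 13.4%, 8.35% and 21.0% of all genes tested. In gradient 2 the numbers were 7, 16 and 4, the last being Mrpl48, Mrps22, Mrps27 and Mrps31. These are 8.97%, 20.5% and 5.13% of the members, against 16.6%, 9.92% and 19.0% of all genes. Mrpl50 was the member that peaked at the light end, in fraction 5 of gradient 1 and fraction 4 of gradient 2, whereas 42.5% and 39.6% of all genes peaked in fractions 3 to 7. Over the shared fractions the maximum lay within 1 fraction in both gradients for 63 members and more than 2 fractions apart for 7.

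To ask which members differ between parts of the gradient beyond the spread of the gradients, 3 zones of 4 fractions were compared: light (fractions 4 to 7), middle (10 to 13) and dense (16 to 19). Each zone of each gradient was 1 value per gene, the mean of log2(TPM + 1), and differences are on that scale, which understates the change of low genes. They were tested with limma over all 11754 genes, with Benjamini-Hochberg adjustment, and called at an adjusted p under 0.05. The 3 comparisons share zones, so their calls are not independent of each other.

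From the light to the middle zone, 70 of 78 members rose and 0 fell. The background was 23.5% of all genes tested called higher and 24.1% called lower in the middle zone. The median difference was 1.64 for the members and 0.05 for all genes. The differences ran from -0.32 for Mrpl30 to 3.58 for Mrps28, and 73 members were higher in the middle zone in both gradients. By their symbols, 43 of 49 Mrpl and 27 of 29 Mrps RNAs rose. The 8 that did not pass were Mrpl9, Mrpl18, Mrpl19, Mrpl30, Mrpl42, Mrpl50, Mrps2 and Mrps24. With the gradient as a replicate block Mrpl9 and Mrps2 also rose, with an adjusted p of 0.0113 and 0.0489, and 37.2% of all genes were called higher and 35.0% lower.

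The 5 largest of these differences belonged to Mrps28, Mrpl21, Mrpl46, Mrpl22 and Mrps18c. All but Mrpl22 have another gene on the same strand over them in GENCODE, to which part of their reads could belong. Mrps28, the counterpart of bacterial S1, had mean TPM of 11.1 and 15.4 in the light zone of gradients 1 and 2, and of 140 and 130 in the middle zone (difference 3.58 ± 0.28 SE, adjusted p = 0.00119 by limma). Mrpl21, the counterpart of L21, went from 12.8 and 13.2 to 97.2 and 98.0 TPM (2.90 ± 0.16). Mrpl46, which is found only in mitochondria, went from 12.0 and 14.6 to 86.0 and 76.6 TPM (2.82 ± 0.23). In each of them both middle values stood above both light values by a wide margin. Mrpl22 (2.80 ± 0.22), whose bacterial counterpart lines the exit tunnel of the nascent chain, and Mrps18c (2.79 ± 0.16) completed the set.

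From the light to the dense zone the members went in both directions. In this comparison 44 rose, 11 fell and 23 did not pass, where the background was 22.3% of all genes called higher and 39.6% called lower in the dense zone. The median difference was 0.77 for the members, with the middle part of the list (first to last quartile) between -0.04 and 1.61, and -0.43 for all genes. With the gradient as a replicate block, 50 members rose and 17 fell, where 30.5% of all genes were called higher and 50.0% lower. The 6 RNAs added to those that fell were Mrpl33, Mrpl49, Mrpl52, Mrpl54, Mrps7 and Mrps23. Under quantile normalization the median of all genes moved to -0.05 and that of the members to 0.93. Of the calls over all genes, 50.6% in place of 36.0% were then toward the dense zone (30.7% of all genes called higher and 29.9% lower), and 51 members rose and 11 fell.

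**Figure D3:**
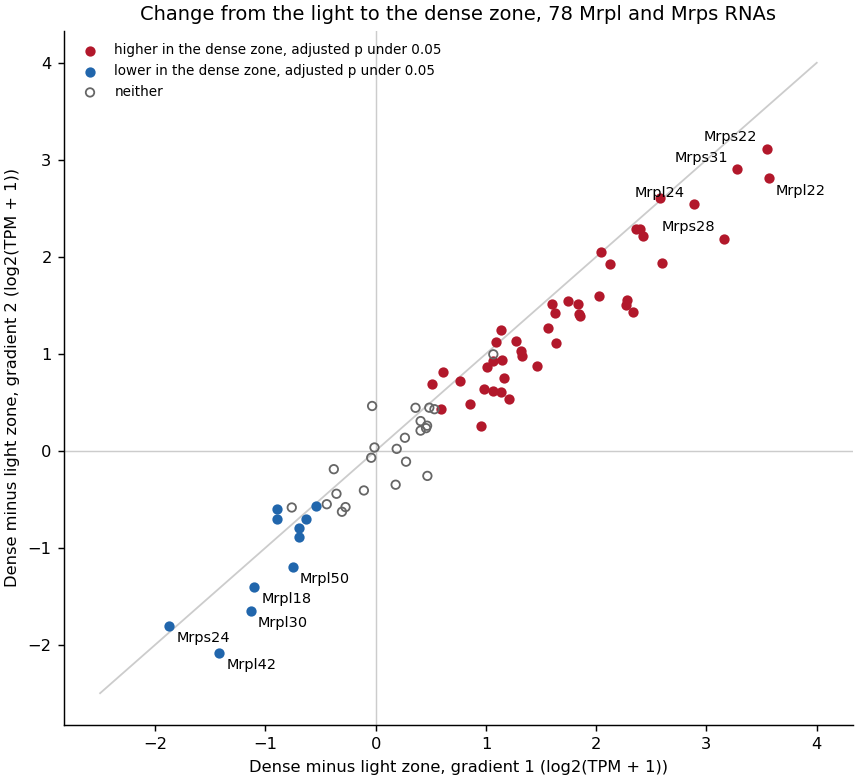
Difference between the dense and the light zone in gradient 1 (horizontal) and gradient 2 (vertical), in log2(TPM + 1), for each of the 78 members. The grey diagonal marks equal values, red points rose and blue points fell with an adjusted p under 0.05. The 5 largest and 5 smallest are named. By their mean, the values run from -1.87 and -1.81 for Mrps24 to 3.55 and 3.12 for Mrps22, and 5 members change sign between the gradients.

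Between the middle and the dense zone, 49 members fell and 6 rose, with a background of 22.5% of all genes called lower and 4.79% called higher in the dense zone. The median difference was -0.94 for the members and -0.28 for all genes. Under quantile normalization these medians were -0.67 and 0.03, and 41 members fell and 9 rose, where 13.7% of all genes were called lower and 10.3% higher. Of the calls over all genes, 17.5% were toward the dense zone, and 43.0% under quantile normalization. With the replicate block 56 fell and 8 rose, where 39.3% of all genes were called lower and 14.1% higher. Without it, the 6 that rose were Mrpl16, Mrpl24, Mrps5, Mrps22, Mrps27 and Mrps31, with differences between 0.58 and 1.25. Mrpl16, Mrpl24 and Mrps5 are counterparts of bacterial L16, L24 and S5, while Mrps22, Mrps27 and Mrps31 are found only in mitochondria.

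Mrps31, a small subunit protein found only in mitochondria (chr8:22411361-22429665, plus strand), had the densest profile of all members. In gradient 1 its TPM was lowest in fraction 4 (8.53), had a median of 51.5 and was highest in fraction 19 (132), and in gradient 2 it was lowest in fraction 6 (10.5), had a median of 58.9 and was highest in fraction 21 (149). Its zone means were 10.4 and 13.6 TPM in the light zone, 46.3 and 45.0 in the middle and 109 and 107 in the dense zone of gradients 1 and 2. The difference between dense and light was 3.09 ± 0.18 (SE, limma adjusted p = 0.000301), and that between dense and middle was 1.25 ± 0.18 (adjusted p = 0.00827). The 3 zones did not overlap. In gradient 2, whose libraries reach fraction 24, Mrps31 was also the single member with a higher mean TPM in fractions 20 to 24 than in fractions 16 to 19. The median member stood at 0.850 times its mean in fractions 16 to 19 and at 0.691 times in fractions 20 to 24.

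Mrps22, a small subunit protein known only from mitochondria, rose the most from the light to the dense zone. In gradient 1 its TPM ran from 3.94 to 123 with a median of 65.7. Gradient 2 gave 7.61 to 104 with a median of 63.2. The light zone held 8.45 and 10.0 TPM, the dense zone 102 and 92.9 TPM, and the difference was 3.33 ± 0.18 (adjusted p = 0.000301). Both gradients had their maximum far down, in fractions 19 and 18.

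Mrpl22 was next, with 16.7 and 19.7 TPM in the light zone and 176 and 142 TPM in the dense zone (3.19 ± 0.22, adjusted p = 0.000321). Mrpl24 went from 47.8 and 48.1 to 332 and 272 TPM (2.71 ± 0.17, adjusted p = 0.000301) and had the third densest center, 15.1 and 14.5. Mrps28 went from 11.1 and 15.4 to 76.8 and 66.7 TPM (2.67 ± 0.28, adjusted p = 0.000751). Mrps28 differed from the others in where it was highest: its middle zone values lay above its dense zone values in both gradients (dense against middle -0.91 ± 0.28, adjusted p = 0.0596, and 0.0330 with the replicate block), and it peaked in fractions 12 and 13.

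At the other end, Mrps24, the counterpart of bacterial S3, had a compact peak near the top of the gradient. Its TPM was highest in fraction 9 of gradient 1 (292, lowest 19.1, median 70.2) and in fraction 8 of gradient 2 (264, lowest 21.5, median 55.8). Zone means were 127 and 122 TPM in the light zone, 108 and 122 in the middle and 32.1 and 31.6 in the dense zone. It fell from the light to the dense zone by 1.84 (SE 0.17, adjusted p = 0.000529). Between light and middle the zone means lay close, and on the log2 scale the middle zone was lower in both gradients. The difference was -0.22 ± 0.17 (adjusted p = 0.318, and 0.0492 with quantile normalization).

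Mrpl42, found only in mitochondria, was highest in fraction 8 of both gradients (242 and 333 TPM) and lowest in fractions 21 and 24 (16.0 and 23.2 TPM), with medians of 65.2 and 58.4. Its light zone differed between the gradients, with 99 TPM in gradient 1 and 195 in gradient 2, whereas the dense zone held 32.9 and 42.7 TPM. It fell from light to dense by 1.75 (SE 0.36, adjusted p = 0.00767). Mrpl30, the counterpart of L30, held 203 and 265 TPM in the light zone and 90.9 and 83.8 in the dense zone, and fell by 1.39 (SE 0.18, adjusted p = 0.00158). Mrpl18, the counterpart of the L18 protein that binds 5S rRNA in bacteria, held 81.1 and 110 TPM and then 36.3 and 39.5, and fell by 1.25 (SE 0.20, adjusted p = 0.00286). In all 3 the dense values lay below the light values in each gradient.

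Mrpl50 had a profile unlike these. Its TPM was highest in fraction 5 of gradient 1 (94.9) and fraction 4 of gradient 2 (99.5), dropped to 48.3 in fraction 6 of gradient 1 and 46.9 in fraction 7 of gradient 2, and came back to 74.1 in fraction 13 and 70.0 in fraction 12. The light and middle zones therefore held close values, 71.2 and 75 against 68.7 and 65.3 TPM (difference -0.06 ± 0.18, adjusted p = 0.791). The dense zone was lower, with 40.3 and 31.1 TPM, a fall by 0.97 from the light zone (SE 0.18, adjusted p = 0.00548). Both gradients showed the light maximum and the second rise. The other RNAs that fell from light to dense were Mrpl10, Mrpl12, Mrpl53, Mrpl57, Mrps2 and Mrps36, by between 0.56 and 0.80.

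**Figure D4:**
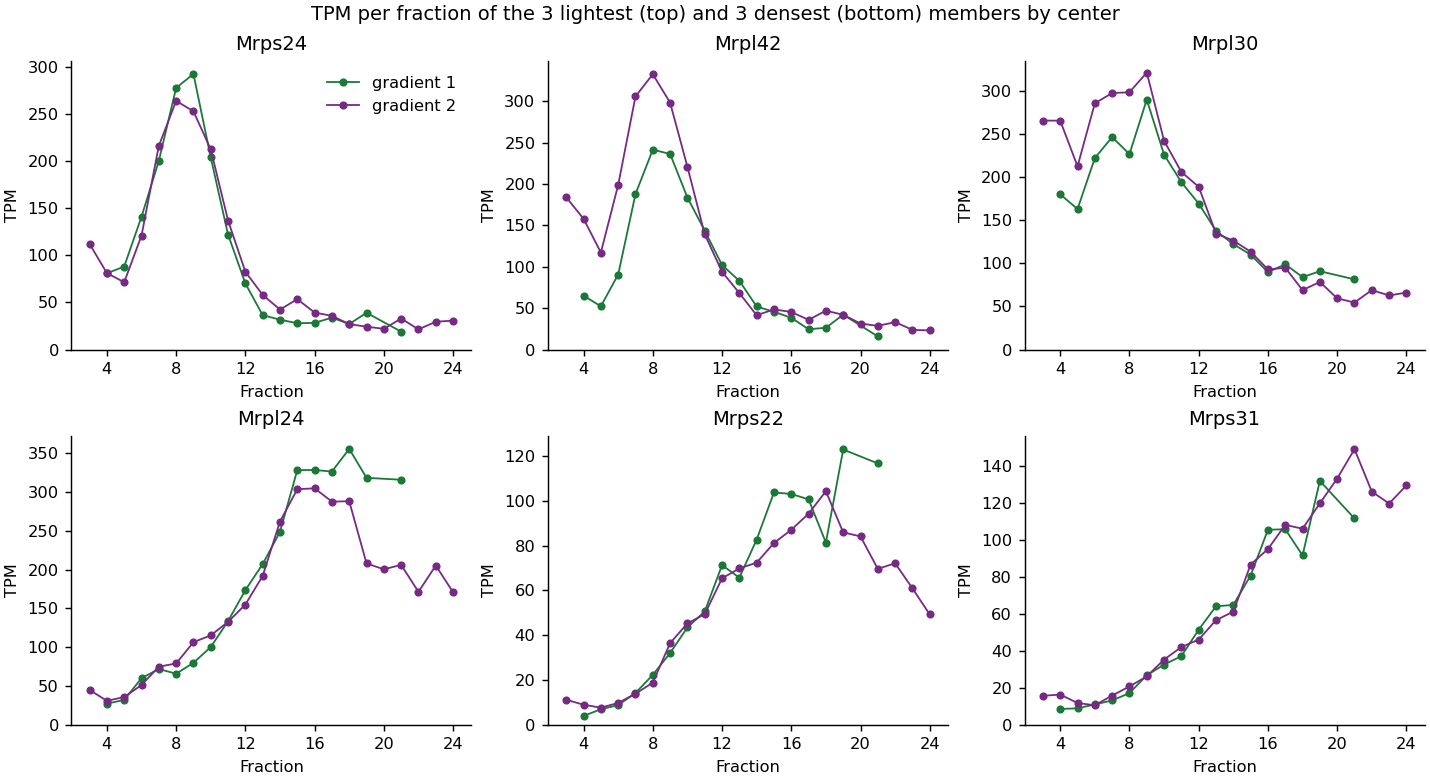
TPM in each fraction for the 3 members with the lightest centers (top row) and the 3 with the densest (bottom row), with gradient 1 in green and gradient 2 in purple, each on its own linear axis from 0. Mrps24 and Mrpl42 peak in fractions 8 and 9, and Mrpl30 in fraction 9 of both gradients. The TPM of Mrps31 climbs from 8.53 in fraction 4 to 132 in fraction 19 of gradient 1. In gradient 2 it climbs from 10.5 in fraction 6 to 149 in fraction 21.

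Separately from the profiles, the letters before the gene starts of the members were read for shared motifs. Whether these letters bear on the place of an RNA in the gradient was not tested. RefSeq promoter sequences (GRCm38.p6) were found for 69 of the 78, and the 250 bases before each start were searched on both strands for 6 short motifs. CGGAAG, the core that ETS family factors bind, or its reverse complement, was in 44.9% of the members (31 of 69). It was in 15.3% of all 27025 symbols of the table, in 27.7% of the genes with rows in both TPM tables that have a promoter there, and in 50.8% of 61 cytosolic ribosomal protein genes. The match nearest to the start was within 100 bases in 24 of the 31 members, at a median of 33 bases. The longer form CCGGAAGT, which contains the first motif, was in 14.5% of members, 3.23% of all symbols and 6.57% of the genes in both tables. In the same order, CCAAT was in 36.2%, 37.5% and 40.5%, GGGGCGGGG in 18.8%, 11.8% and 21.3%, TATAAA in 7.25%, 14.3% and 8.61%, and ATGGCGG in 1.45%, 2.58% and 4.44%. The members' share was thus above that of the genes in both tables for CGGAAG and CCGGAAGT. For the other motifs it was a little lower, with ATGGCGG in 1 of 69 members. None of these shares was tested.

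The share with CGGAAG was alike along the gradient: 45.8% of the 24 lightest members with a promoter, 45.5% of the 22 in between and 43.5% of the 23 densest. The 100 bases before the start are shown for the lightest and densest members, except Mrps31, where GENCODE places an exon in that window. Capitals mark CGGAAG or its reverse complement. The windows lie at chr11:5707702-5707801 on the minus strand, chr10:95501950-95502049 on the minus strand, chr1:37890377-37890476 on the plus strand, chr3:87919444-87919543 on the plus strand and chr9:98601680-98601779 on the minus strand, all in GRCm38.p6.
Mrps24: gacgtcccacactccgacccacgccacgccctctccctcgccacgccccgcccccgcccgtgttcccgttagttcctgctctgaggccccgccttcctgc
Mrpl42: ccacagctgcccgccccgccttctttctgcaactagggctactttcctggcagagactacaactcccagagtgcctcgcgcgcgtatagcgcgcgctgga
Mrpl30: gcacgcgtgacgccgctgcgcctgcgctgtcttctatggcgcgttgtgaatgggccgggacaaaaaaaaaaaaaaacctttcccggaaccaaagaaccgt
Mrpl24: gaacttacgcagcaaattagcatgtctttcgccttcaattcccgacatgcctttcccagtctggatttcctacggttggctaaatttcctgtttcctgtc
Mrps22: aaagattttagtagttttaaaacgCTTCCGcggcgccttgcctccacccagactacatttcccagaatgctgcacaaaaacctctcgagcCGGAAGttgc

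In these 5 windows the motif was found before Mrps22 only, 2 times, beginning 76 and 10 bases before the start. The window of Mrps24 lies within the span that GENCODE gives its gene (chr11:5703983-5715680). G and C made up 73% of the window of Mrps24, 63% of that of Mrpl42 and 55% of that of Mrpl30, and 49% and 46% of those of Mrps22 and Mrpl24. A match of letters is a description and does not show that a factor binds there.

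The paralogs Mrps18a, Mrps18b and Mrps18c are related copies of bacterial S18, of which the first lies in the large subunit and the others in the small subunit. The windows before Mrps18a (chr17:46110904-46111003 on the plus strand) and Mrps18b (chr17:35916441-35916540 on the minus strand) hold 2 matches each and are shown as the windows of related copies. The window of Mrps18c holds 0 matches, and GENCODE places an exon in it.
Mrps18a: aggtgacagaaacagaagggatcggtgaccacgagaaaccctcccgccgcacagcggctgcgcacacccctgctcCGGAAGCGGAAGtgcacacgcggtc
Mrps18b: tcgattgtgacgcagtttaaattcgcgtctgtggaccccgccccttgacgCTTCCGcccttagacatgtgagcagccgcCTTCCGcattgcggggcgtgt

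Mrps18b was the densest of the 3 paralogs. It peaked in fraction 15 of both gradients, held 39.8 and 41.5 TPM in the light zone, 137 and 138 in the middle and 132 and 122 in the dense zone, and rose from light to dense by 1.64 ± 0.15 (adjusted p = 0.000507). Mrps18c peaked in fractions 10 and 12, with 41.7 and 42.4 TPM in the light, 259 and 270 in the middle and 77.2 and 87.7 in the dense zone (dense against light 1.11 ± 0.16, adjusted p = 0.00228). Mrps18a held 53.9 and 57.1, then 167 and 172, then 67.9 and 68.2 TPM, and its difference between dense and light was 0.36 ± 0.14 (adjusted p = 0.0741, and 0.0163 with the replicate block). Their centers were 11.9 and 12.0 for Mrps18a, 12.0 and 12.2 for Mrps18c and 13.6 and 13.3 for Mrps18b. In both gradients Mrps18a was the highest of the 3 in the light zone, Mrps18c in the middle zone and Mrps18b in the dense zone. Whether any pair of paralogs differs was not tested.

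Members with a longer coding sequence lay, on the whole, further down the gradient. Over the 78 members, the center and the log2 of the coding length in GENCODE M21 were related with R = 0.566 in gradient 1 and 0.551 in gradient 2 (rho = 0.562 and 0.555). For all 10819 genes tested that have a coding length, R was 0.130 and 0.127. The median coding length was 582 bases for the members and 1344 for these genes, so R was taken over unlike lengths. For the whole transcript the members gave R = 0.296 and 0.240, for the part after the stop codon 0.065 and 0.018, and for the mean TPM -0.146 and -0.103. Over all genes tested with a length, R was -0.122 and -0.152 for the whole transcript. It was -0.240 and -0.268 for the part after the stop codon. The relation with coding length was there for Mrpl (R = 0.521 and 0.513, n = 49) and Mrps RNAs (0.624 and 0.601, n = 29). These are descriptions over genes that share libraries, and carry no p.

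Ordered by coding length, the 26 shortest members (195 to 477 bases) had median centers of 11.8 and 11.7 in gradients 1 and 2, the next 26 (480 to 753 bases) of 12.6 and 12.4, and the 26 longest (756 to 1326 bases) of 13.1 and 12.7. From light to dense, 10 of the shortest rose and 5 fell, against 14 and 4 in the next group and 20 and 2 among the longest. Of all genes tested, 22.3% were called higher and 39.6% lower in that comparison. From light to middle the groups were alike, with 24, 23 and 23 that rose, where 23.5% of all genes were called higher. Length did not order every member. Mrpl37 with 1269 coding bases had centers of 12.5 and 12.0, Mrpl24 with 648 bases had 15.1 and 14.5, and Mrps24 with 501 bases had 9.35 and 9.68.

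**Figure D5:**
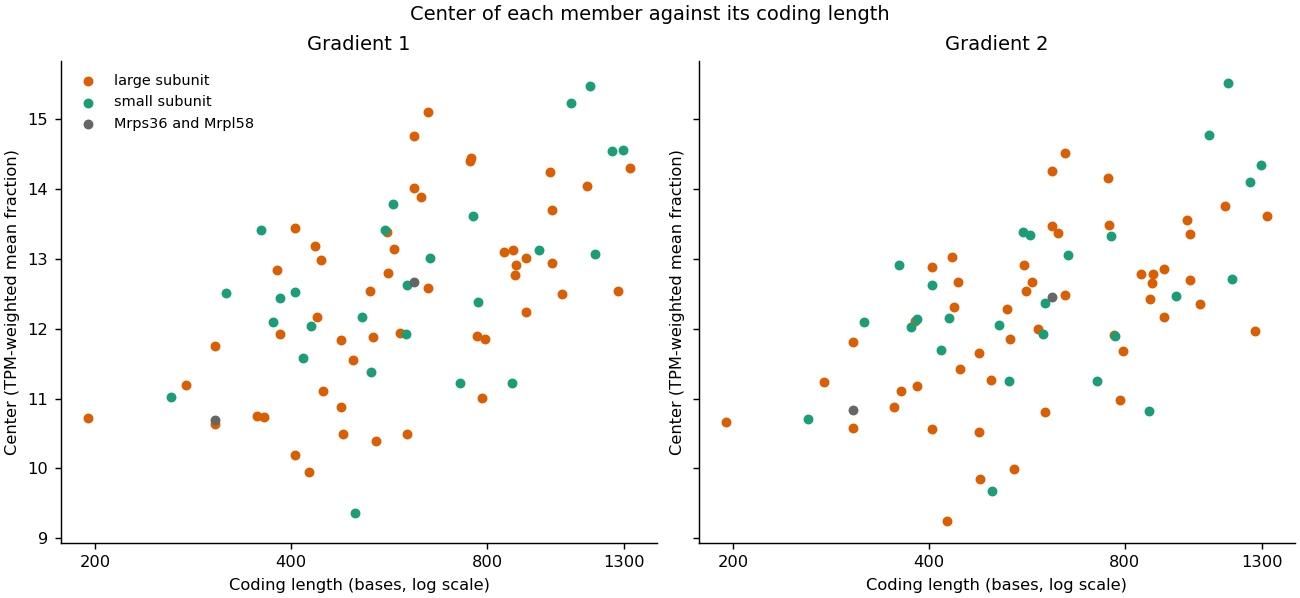
Center of each member (mean fraction weighted by TPM, vertical) against its coding length in bases (horizontal, log scale), in gradient 1 and gradient 2, with large subunit members in orange, small subunit members in green and Mrps36 and Mrpl58 in grey. Centers are higher for longer coding sequences (R = 0.566 and 0.551), and members of like length still differ by several fractions.

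The members of each subunit, with and without a bacterial counterpart, spread over the gradient. Of the 78, 76 were placed in 4 classes, leaving out Mrps36 and Mrpl58. The median center in gradients 1 and 2 was 12.7 and 12.4 for the 30 large subunit members with a bacterial counterpart, and 12.1 and 12.0 for the 20 that are only in mitochondria. It was 12.4 and 12.1 for the 16 small subunit members with a counterpart and 13.1 and 12.8 for the 10 that are only in mitochondria. From light to dense, 17 rose and 4 fell in the first of these classes, 9 and 4 in the second, 10 and 2 in the third and 7 and 0 in the fourth. Their median differences were 0.73, 0.28, 0.82 and 1.41. Over all genes, 22.3% were called higher and 39.6% lower, with a median of -0.43. Differences between the classes were not tested.

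Pairs of members were only moderately alike. The median Pearson correlation of 2 members' profiles over the 17 shared fractions was 0.571 in gradient 1 and 0.613 in gradient 2 (3003 pairs), against 0.067 and 0.085 over all pairs of genes tested. It was 0.526 and 0.585 within the large subunit, 0.628 and 0.656 within the small subunit, and 0.591 and 0.624 between the subunits. Of the pairs of members, 17.7% and 15.1% had a negative R. The same measure gave 0.964 and 0.966 for 81 RNAs of cytosolic ribosomal proteins and 0.911 and 0.879 for 37 of the proteasome. It gave 0.559 and 0.593 for 46 of complex I, and 0.464 and 0.499 for 38 of complexes III, IV and ATP synthase. These lists were taken by symbol, and those of complex I and the proteasome hold assembly factors beside subunits. The median center of the RNAs of cytosolic ribosomal proteins was 8.83 and 8.90. Of these, 77 of 81 fell from light to dense, where 39.6% of all genes were called lower. The range that holds the central part of the centers, from the first to the last quartile, spanned 1.78 and 1.61 fractions for the members, 1.29 and 1.19 for the cytosolic ribosome and 0.997 and 0.907 for the proteasome. It spanned 2.26 and 1.77 for complex I, 1.95 and 1.66 for complexes III, IV and ATP synthase, and 3.31 and 2.69 for all genes tested. These values are descriptions, and none of the differences between groups was tested.

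Abundance varied 45.0-fold among these RNAs. The mean TPM over both gradients ran from 6.98 to 314 with a median of 69.8, where the median of all genes tested was 15.3. Mrpl12, the counterpart of the L7/L12 stalk to which translation factors bind, was highest, with means of 337 TPM in gradient 1 and 291 in gradient 2. Its TPM ran from 123 to 767 (median 215) and from 116 to 692 (median 178). Mrpl52 followed with 319 and 288 TPM, Mrps21 with 291 and 263, Mrpl14 with 212 and 177, and Mrpl38 with 217 and 135. The first 3 kept their order in both gradients. Mrpl38 lay above Mrpl14 in gradient 1, and in gradient 2 it lay below Mrpl14, Mrpl24, Mrpl30, Mrps16 and Mrpl27.

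These abundant RNAs did not share a place in the gradient. Mrpl12 fell from 311 and 265 TPM in the light zone to 155 and 160 in the dense zone (by 0.74, SE 0.16, adjusted p = 0.00887). Mrpl52 and Mrps21, both small proteins, were highest in fraction 10 of each gradient, with maxima of 809 and 707 and of 800 and 767 TPM. Their differences between dense and light were -0.29 ± 0.16 (adjusted p = 0.168, and 0.0479 with the replicate block) and -0.08 ± 0.18 (adjusted p = 0.704), the latter 0.17 with narrower zones. Mrpl38, a protein of the central protuberance of the large subunit, rose from 61.9 and 38.0 TPM to 296 and 176 (2.34 ± 0.36, adjusted p = 0.00269), and Mrpl14, at the interface of the subunits, from 59.6 and 61.0 to 219 and 178 (1.81 ± 0.18, adjusted p = 0.000637).

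The 5 least abundant members were Mrps25 (means of 7.01 and 6.95 TPM), Mrpl19 (8.46 and 5.97), Mrpl41 (18.9 and 16.9), Mrpl35 (19.2 and 17.7) and Mrpl17 (21.4 and 16.2). Mrpl41 rose from 4.59 and 5.45 TPM in the light zone to 21.4 and 16.1 in the dense zone (1.92 ± 0.23, adjusted p = 0.00122). Mrpl35 rose by 0.51 ± 0.17 (adjusted p = 0.0435, and 0.0794 with narrower zones). Mrpl17 had a difference of 0.48 ± 0.23 (adjusted p = 0.113, and 0.00808 with the replicate block) and Mrps25 of -0.06 ± 0.19 (adjusted p = 0.813, with the value at 0.47 under quantile normalization).

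Profiles agreed between the gradients for most members. The Pearson correlation of a member's profile in the 2 gradients had a median of 0.941, against 0.899 over all genes tested, and was over 0.9 for 63 of 78. The 5 lowest were Mrpl19 (0.460), Mrpl1 (0.523), Mrps25 (0.795), Mrpl55 (0.827) and Mrpl9 (0.844). Mrpl19, a large subunit protein, was low and flat, at 4.42 to 13.1 TPM in gradient 1 and 3.12 to 9.13 TPM in gradient 2. Its 3 zone differences did not pass (0.31 between dense and light, adjusted p = 0.322), and it was the member least like the mean of the others in gradient 1 (R = -0.310).

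Mrpl1, the protein of the L1 stalk, held 18.5 and 19.6 TPM in the light, 29.0 and 31.8 in the middle and 28.8 and 34.7 in the dense zone. It rose from light to dense by 0.71 ± 0.19 (adjusted p = 0.0182, and 0.116 with narrower zones). Mrpl55 rose from 18.8 and 20.6 to 39.7 and 29.0 TPM (0.87 ± 0.21, adjusted p = 0.0146). Mrpl9 held 60.1 and 56.1, then 85.0 and 80.9, then 54.1 and 42.3 TPM, and fell from the middle to the dense zone by 0.78 (SE 0.18, adjusted p = 0.0267). The other members least like the mean of the rest, by the lower R of the gradients, were Mrps31 (-0.116), Mrpl50 (-0.029), Mrpl30 (0.049) and Mrpl42 (0.074).

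Other genes of mitochondrial translation were taken from lists of names. Of the 5 mitoribosome subunits with names of another form, 5 rose from light to middle, where 23.5% of all genes were called higher, and 4 from light to dense, where 22.3% were. Dap3, a GTP-binding protein of the small subunit, rose from light to dense by 1.82 ± 0.21 (adjusted p = 0.000999), Gadd45gip1, of the large subunit, by 1.43 ± 0.19 (adjusted p = 0.00161), Aurkaip1 by 1.21 ± 0.22 (adjusted p = 0.00509) and Ptcd3 by 0.99 ± 0.17 (adjusted p = 0.00385). Chchd1 had a difference of -0.04 ± 0.20 (adjusted p = 0.875). Their centers ran from 11.0 to 14.1 in both gradients, inside the range of the members.

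Translation factors, assembly factors and mitochondrial aminoacyl-tRNA synthetases had denser median centers than the members. From light to dense, 11 of 16 translation factors rose and 0 fell, 14 of 24 assembly and rRNA modification factors rose and 3 fell, and 13 of 17 synthetases rose and 1 fell, where the background was again 22.3% higher and 39.6% lower. Median differences were 1.04, 1.01 and 1.10, and the median centers in gradient 1 were 13.7, 13.2 and 13.6. Between the middle and the dense zone 2, 8 and 1 of them fell (12.5%, 33.3% and 5.88%), and 2, 0 and 0 rose. Of all genes tested, 22.5% were called lower there and 4.79% higher. The largest rises from light to dense were those of Tufm, the elongation factor Tu of mitochondria (2.97 ± 0.18, adjusted p = 0.000301), of Tsfm, its exchange factor (2.79 ± 0.16, adjusted p = 0.000301), and of Taco1, a translational activator of the message for cytochrome oxidase subunit I (2.77 ± 0.20, adjusted p = 0.000344). Ybey, an endoribonuclease, fell the most, by 1.37 (SE 0.21, adjusted p = 0.00266), at mean TPM of 4.00 and 3.27, which is below the mean of 5 asked of the other genes named from these lists, so that it was chosen after its values were seen. Wars2, the tryptophanyl-tRNA synthetase, fell by 1.03 (SE 0.19, adjusted p = 0.00548), Trub2, a pseudouridine synthase, by 0.81 (SE 0.19, adjusted p = 0.0117), and the GTPase Gtpbp10 by 0.62 (SE 0.18, adjusted p = 0.0283). The differences of these lists from the members and from all genes were not tested.

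All 11676 tested genes that are not members were ranked by the likeness of their profile to the mean profile of the members, as the lower of the 2 gradients' R over 17 fractions. The first 10 were Osgep (0.985), Aurkaip1 (0.980), Auh (0.978), Sntb1 (0.977), Pnpla2 (0.977), Supv3l1 (0.974), Pagr1a (0.973), Macrod1 (0.973), Mthfs (0.972) and Cblc (0.970). Of these, Aurkaip1 is itself a mitoribosome subunit, Auh an enzyme of leucine breakdown in mitochondria, and Supv3l1 a helicase of mitochondrial RNA decay. Others act elsewhere, among them Pnpla2, a triglyceride lipase of lipid droplets, and Cblc, a ubiquitin ligase. The first 100 genes are 0.856% of those ranked, and 87 of them are in none of the lists of ribosomal, proteasome, respiratory chain or mitochondrial translation genes. Among them, 7 were of the complex I list (15.2% of its 46) and 3 of complexes III, IV and ATP synthase (7.89% of 38). There were 2 of the proteasome list (5.41% of 37) and 0 of the cytosolic ribosomal proteins (of 81). The 7 and the 2 include the assembly factors Ndufaf6 and Psmd5. The subunits with other names had 1 of 5 there, and the translation factors (of 16), assembly and modification factors (of 24) and synthetases (of 17) had 0.

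Since TPM sums to a constant, the other RNAs of a fraction bear on these values. The 8 hepatocyte markers summed to 50119 and 36727 TPM per library in the light zone of gradients 1 and 2, to 9432 and 14763 in the middle and to 11543 and 22518 in the dense zone. When the 50 most abundant genes were left out and the rest rescaled, the median difference of the members from light to middle was 1.51 in place of 1.64, and 64 members rose and 0 fell, where 21.2% of all genes were called higher and 27.3% lower. GENCODE lists another gene on the same strand over 13 of the 78 members, so that part of their reads could belong to it. Of the named members, these are Mrpl21, Mrpl46, Mrps18c, Mrps24 and Mrps28.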

How the data were processed

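RNA from 39 fractions of 2 gradients was sequenced with a stranded kit after depletion of ribosomal RNA. Base calls were made with bcl2fastq 2.16.0.10 per the submitters' processing notes. The authors pseudo-aligned reads with Kallisto to an mm10 RefSeq index and deposited TPM for each symbol, left to those above 1 in some fraction. The version of Kallisto and the summing of transcripts are not given in the sources used here. All value columns matched a sample.

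Members and lists were chosen with earlier results of these data known. Named members were those at the extremes of mean TPM, zone differences, center, agreement of the gradients and likeness to the others, and the Mrps18 paralogs. Zone means of log2(TPM + 1) gave 6 values per gene and were fitted with limma 3.58.1 (R 4.3.3, eBayes with trend) wherever the 24 zone libraries averaged 1 TPM or more. Medians, centers, R and motif shares were not tested. Zones of a gradient come from 1 homogenate, so the gradient number pairs them. Across 11754 genes, the departures of same-numbered zones from the zone means had r = 0.665 (light and middle), 0.540 (light and dense) and 0.798 (middle and dense). A fit with the gradient as a block was run beside the main fit.

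The fit was tested on simulated data for the comparison of dense and light over 11754 genes. There it called 17.6% of genes made to differ by 1 log2 unit, 62.9% at 2 units, 78.6% at 3 units and 0.0519% of unchanged genes. The simulated zones of a gradient varied independently, unlike the real ones, and 11554 genes were left unchanged. These rates therefore hold for the simulated setting and do not give the power or error of the fit on the real data. Alternatives were a pseudocount of 0.1, no filter or a mean of at least 10 TPM, quantile normalization, rescaling without the 50 most abundant genes, narrower zones (fractions 5 and 6, 11 and 12, 17 and 18), the block, and each gradient left out. Lengths and positions came from GENCODE M21 for GRCm38, and promoters from RefSeq. Isoforms and proteins were not analysed here. Summaries used pandas 2.3.3, NumPy 2.4.6 and SciPy 1.17.1 under Python 3.11.15, and figures Matplotlib 3.10.9.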

Additional observations from a re-analysis of the deposited data

How the results depend on the processing

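Every median zone difference of the members kept its direction under every alternative. From light to middle the median was 1.47 with quantile normalization, 1.51 rescaled without the 50 most abundant genes and 1.82 with narrower zones, and from middle to dense it was -0.67 with quantile normalization and -1.05 with narrower zones. With each gradient left out in turn it lay between 0.62 and 0.97 from light to dense, between 1.54 and 1.71 from light to middle, and between -1.02 and -0.88 from middle to dense. With 1 gradient left there is no spread to test against, so these are values with no test.

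With the replicate block, 17 members in place of 11 fell from light to dense, and all 55, 70 and 55 called members of the 3 comparisons kept their calls. With quantile normalization 2 members (Mrpl30 and Mrps24) in place of 0 fell from light to middle, where 24.2% of all genes were called lower and 26.9% higher. The other counts of members stayed within 1.5 times. Over all genes, the block gave 1661 higher and 4614 lower from middle to dense in place of 563 and 2645, and 4369 higher from light to middle in place of 2762. Quantile normalization gave 1213 higher and 1607 lower from middle to dense. A mean TPM of at least 10, with 7233 genes tested, gave 2570 lower from light to dense in place of 4658 and 1472 lower from light to middle in place of 2827.

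The median R between members was 0.637 and 0.657 on log2(TPM + 1) in gradients 1 and 2, and 0.643 over all fractions of gradient 2. The median center over all fractions of gradient 2, which reach fraction 24, was 13.4.

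Differences of named members that turned sign did not pass in either fit. With quantile normalization these were Mrpl18 (-0.002) and Mrpl19 (0.02) from light to middle, Mrpl35 (0.28) and Mrps18b (0.0696) from middle to dense, and Mrps25 (0.47) from light to dense. Rescaling turned Mrpl35 from middle to dense (0.0057). Narrower zones turned Mrpl1 from middle to dense (-0.13), Mrpl42 from light to middle (0.20) and Mrps21 from light to dense (0.17). The cause of these changes was not tested. Depth is unknown, so the counting error of low members such as Mrps25 and Mrpl19 could not be given.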
